A study of Mus musculus with 16 samples.

Results

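Collagen fibres in the pressure-loaded heart are made strong by enzymes that modify the chain inside the cell and cross-link it outside. The 10 genes described here encode the lysyl oxidases (Lox, Loxl1, Loxl2, Loxl3 and Loxl4), the lysyl hydroxylases (Plod1, Plod2 and Plod3) and a pair of prolyl 4-hydroxylase alpha subunits (P4ha2 and P4ha3). Members were chosen by name: each is the row of the deposited count table whose Ensembl identifier carries that symbol, 10 of 55487 genes in all. All 10 passed the filter on low counts that left 18275 genes for testing.

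RNA came from the apex of the hearts of 16 male mice, 4 in each group. Ctrl mice were wild type, and KO mice lacked Cardinal (annotated as Gm12295) after CRISPR/Cas9 editing, a cardiac long noncoding RNA that is transcribed but not translated into a protein. Transverse aortic constriction (TAC), a ligature that narrows the vessel, puts a pressure load on the left ventricle; sham mice were operated on with no ligature tied. The groups, all collected 4 weeks after surgery, are called Ctrl sham and Ctrl TAC, KO sham and KO TAC. No source used here names a cell type to which the knockout is limited or how many founder lines there were, nor are strain and age given or whether littermates were compared. The tissue carried its defining markers: the 7 cardiomyocyte genes summed to between 36966 and 57023 CPM (counts scaled to the size of the library) in every library. The 3 atrial genes were low. Sarcolipin (Sln) was at 0.134 CPM or less and the light chain gene Myl7 at 0.822 or less, its highest in Ctrl TAC 2. Myl4, another atrial light chain gene, was at 1.05 to 2.32 CPM.

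Lysyl oxidases are copper enzymes that are secreted and convert lysines and hydroxylysines of collagen and elastin into reactive aldehydes, from which covalent cross-links form. Lysyl hydroxylases act earlier, in the endoplasmic reticulum, and supply the hydroxylysines that make stable cross-links and carry sugars. Prolyl 4-hydroxylase, a tetramer of alpha subunits with the P4hb protein, makes the hydroxyproline on which the stability of the triple helix depends. In the heart these genes are known chiefly from fibroblasts, and cross-linked collagen is a known contributor to stiffness of the fibrotic ventricle.

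Libraries held between 53169437 and 79404714 counts. Levels are given as CPM on library totals scaled by the TMM method, as mean ± SD over 4 libraries, and tests are edgeR quasi-likelihood tests with p-values adjusted by Benjamini-Hochberg over the 18275 genes, called at an adjusted p under 0.05. Cardinal was at 3.24 to 3.86 CPM in Ctrl sham, 2.69 to 8.02 in Ctrl TAC and 0.297 to 0.553 in KO sham, but in KO TAC it was at 0.276 to 0.371 in libraries 1 to 3 and at 4.55 in the library labelled KO TAC 4, against its label. Ctrl TAC 2 stood apart from the other 15 libraries on the second principal component. Animal numbers in the sample titles start with 25 for Ctrl TAC 2, 3 and 4 and KO TAC 4 and with 3 for the other 12, and within the latter they start with 33 for Ctrl sham 4 and KO sham 1, 2 and 3; what these series mean is not given in the labels. Calls for the members and counts of calls for related genes are given also without KO TAC 4 and Ctrl TAC 2 or with the series as a model term where these change them.

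Pressure overload raised the whole lysyl oxidase family, and left most of the hydroxylases near their sham level. In Ctrl hearts 6 of the 10 genes were higher after TAC, all 5 lysyl oxidases and Plod3, against 10.4% of all genes tested, and none was lower. In KO hearts the 5 lysyl oxidases and P4ha3 were higher, again 6 of 10, against 17.8% of all genes, and none was lower. Without KO TAC 4 the same 6 were called in KO, against 16.4% of all genes, at log2 fold changes of 2.68 for Lox, 1.76 for Loxl1, 2.19 for Loxl2, 1.54 for Loxl3 and 1.84 for Loxl4. The median log2 fold change of the 10 was 0.94 in Ctrl and 1.60 in KO, beside 0.00 in both for all genes tested. After TAC, Lox, Loxl1 and Loxl3 were higher in KO than in Ctrl hearts, 3 of 10 against 1.36% of all genes, and between the sham groups no member was called. Bulk tissue cannot tell more cells of a type from more RNA per cell, and these counts measure RNA, not enzyme protein or activity.

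**Figure D1:**
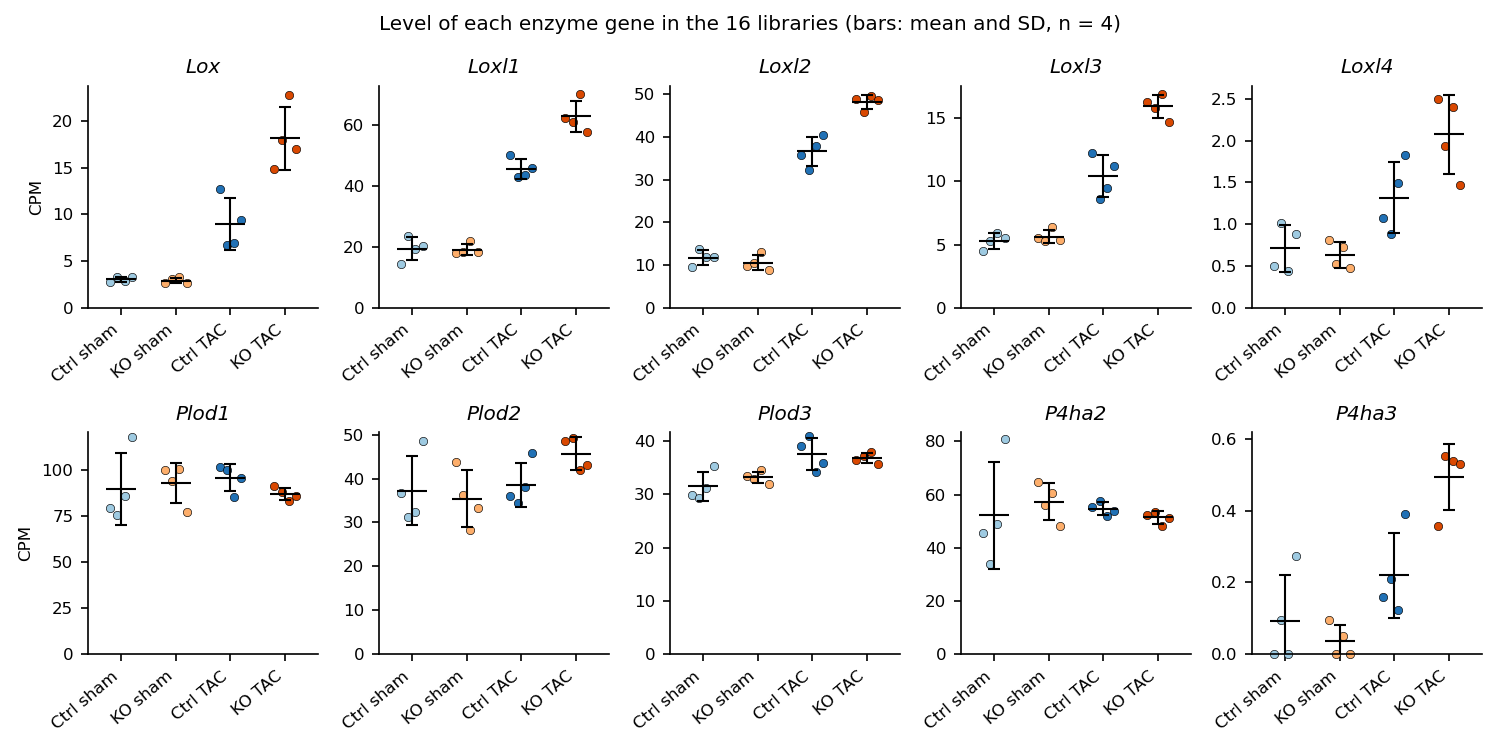
Level of each of the 10 genes in the 16 libraries, in CPM on a linear axis from 0, with 1 panel per gene and the 4 groups on the horizontal axis; points are libraries and bars the mean and SD (n = 4). The 4 KO TAC libraries of Lox, Loxl1, Loxl2 and Loxl3 lie above all 4 Ctrl TAC libraries, whereas the panels of Plod1 and P4ha2 show groups that overlap, with a high point in Ctrl sham.

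Lox (ENSMUSG00000024529, GRCm38 chromosome 18, 52516067 to 52529867, minus strand) encodes the founding lysyl oxidase. It was at 2.73, 3.31, 2.87 and 3.25 CPM in Ctrl sham 1 to 4, and at 2.67, 3.03, 3.24 and 2.67 CPM in KO sham 1 to 4. After TAC it was at 12.7, 6.75, 6.98 and 9.40 CPM in Ctrl and at 14.9, 18.0, 22.8 and 17.0 CPM in KO. Every TAC library lay above every sham library, every KO TAC library lay above every Ctrl TAC library, and Ctrl TAC 1 was the nearest to the KO TAC range. The level rose 2.95-fold with TAC in Ctrl (log2 fold change 1.56, SE 0.18, adjusted p = 1.45e-05) and 6.26-fold in KO (2.65, SE 0.18, adjusted p = 2.49e-08). KO TAC exceeded Ctrl TAC 2.03-fold (1.02, SE 0.17, adjusted p = 0.0104), the largest difference between these groups among the members called.

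Loxl1 (ENSMUSG00000032334, chromosome 9, 58287738 to 58313186, minus strand), which is known for its part in elastic fibre assembly, was the most abundant lysyl oxidase in every group. It was at 14.3, 23.4, 19.3 and 20.2 CPM in Ctrl sham 1 to 4 and at 18.0, 18.2, 21.7 and 18.3 CPM in KO sham. After TAC the 4 Ctrl libraries held 50.0, 42.8, 43.4 and 45.6 CPM and the 4 KO libraries 62.3, 60.9, 69.8 and 57.6 CPM. No range of a TAC group touched that of its sham group, nor that of the other TAC group. The rise was 2.36-fold in Ctrl (log2 1.24, SE 0.11, adjusted p = 1.34e-06) and 3.29-fold in KO (1.72, SE 0.11, adjusted p = 2.08e-08), and KO TAC was 1.38-fold above Ctrl TAC (0.46, SE 0.11, adjusted p = 0.0374).

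Loxl2 (ENSMUSG00000034205, chromosome 14, 69609068 to 69695834, plus strand) encodes a lysyl oxidase with scavenger receptor domains that is much studied in fibrosis. It was at 9.42, 13.7, 12.0 and 11.8 CPM in Ctrl sham 1 to 4 and at 9.75, 10.4, 13.0 and 8.87 CPM in KO sham. TAC libraries held 35.8, 32.3, 37.9 and 40.4 CPM in Ctrl and 48.8, 45.7, 49.6 and 48.6 CPM in KO. The 4 groups formed 3 levels that did not overlap, a shared sham level, Ctrl TAC and KO TAC. Loxl2 had the largest rise of the family in Ctrl, 3.13-fold (log2 1.65, SE 0.11, adjusted p = 5.66e-08), and rose 4.59-fold in KO (2.20, SE 0.11, adjusted p = 1.13e-09). The difference between the TAC groups, 1.32-fold (0.40, SE 0.11), missed the threshold at an adjusted p of 0.0543 although the libraries did not overlap. The exons of Loxl2 share 301 bases with the antisense transcript Gm27177, which went from 0.359 ± 0.0748 CPM in KO sham to 0.602 ± 0.124 CPM in KO TAC (adjusted p = 0.0341).

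Loxl3 (ENSMUSG00000000693, chromosome 6, 83034173 to 83052562, plus strand), another lysyl oxidase with scavenger receptor domains, was at 4.47, 5.26, 5.93 and 5.53 CPM in Ctrl sham 1 to 4 and at 5.55, 5.26, 6.39 and 5.32 CPM in KO sham. It was at 12.3, 8.62, 9.49 and 11.2 CPM in Ctrl TAC and at 16.3, 15.8, 16.9 and 14.7 CPM in KO TAC. The TAC groups again lay above the sham groups and apart from each other. It rose 1.97-fold in Ctrl (log2 0.97, SE 0.11, adjusted p = 6.36e-06) and 2.83-fold in KO (1.50, SE 0.11, adjusted p = 2.08e-08), and KO TAC was 1.53-fold above Ctrl TAC (0.62, SE 0.11, adjusted p = 0.0104). Its exons share 535 bases with Htra2, a mitochondrial protease gene on the opposite strand, and whether counting used the strand is not given in the sources used here. Htra2 itself had log2 fold changes of -0.13 in Ctrl (adjusted p = 0.212) and -0.21 in KO (adjusted p = 0.0259).

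Loxl4 (ENSMUSG00000025185, chromosome 19, 42593982 to 42612813, minus strand) was the scarcest lysyl oxidase. Counts were 36, 65, 26 and 45 in Ctrl sham 1 to 4, 51, 30, 42 and 27 in KO sham, 61, 59, 98 and 131 in Ctrl TAC and 168, 119, 157 and 122 in KO TAC. The KO TAC libraries all exceeded the KO sham libraries, while in Ctrl the lowest TAC library, 0.882 CPM in Ctrl TAC 2, lay below the highest sham library at 1.02 CPM. The rise was 1.87-fold in Ctrl (log2 0.90, SE 0.29, adjusted p = 0.0343) and larger in KO (log2 1.71, SE 0.29, adjusted p = 0.000166). The call in Ctrl was lost in 4 of 8 fits that each left out a library, those without Ctrl sham 1, Ctrl sham 3, Ctrl TAC 3 or Ctrl TAC 4, where its log2 fold change was 0.76, 0.73, 0.84 and 0.70. It was lost also with the animal-number series (25 or 3) as a model term (1.02, adjusted p = 0.108), where 5 of 10 members were called in Ctrl against 7.14% of all genes, and in a fit to the 8 Ctrl libraries alone (0.90, adjusted p = 0.0767). The genotypes did not differ past the threshold after TAC (0.65, 95% interval 0.08 to 1.22, adjusted p = 0.202).

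In TAC against sham, 4 members in Ctrl (Lox, Loxl1, Loxl2 and Loxl3) had libraries that did not overlap and lay higher, against 10.5% of all genes tested. In KO these were 7 members, the 5 lysyl oxidases with Plod3 and P4ha3, against 18.0%. Between KO TAC and Ctrl TAC, 4 members did not overlap and were higher in KO, Lox, Loxl1, Loxl2 and Loxl3, against 5.55% of all genes.

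**Figure D2:**
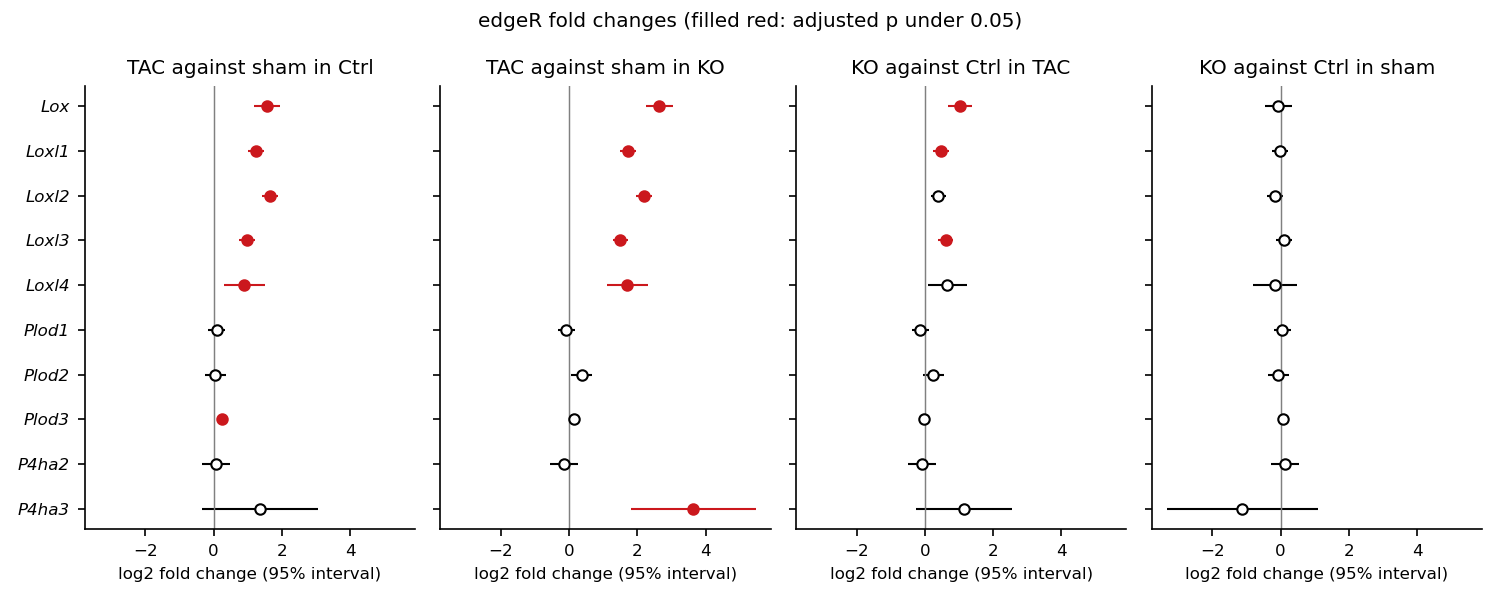
Log2 fold changes of the 10 genes in 4 comparisons, with 95% intervals from the edgeR fit on 1 shared scale; filled red points passed an adjusted p of 0.05 and open points did not. The upper 5 rows, the lysyl oxidases, lie to the right of 0 in both TAC comparisons, and every interval in the sham comparison spans 0.

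The lysyl hydroxylases changed less with TAC than the lysyl oxidases. Plod1 (ENSMUSG00000019055, chromosome 4, 147909753 to 147936767, minus strand), the enzyme for lysines of the helical part of collagen, was at 89.8 ± 19.3 CPM in Ctrl sham, 92.9 ± 11.0 in KO sham, 95.8 ± 7.26 in Ctrl TAC and 87.2 ± 3.38 in KO TAC. The 4 ranges overlapped, and the log2 fold change with TAC was 0.09 in Ctrl (95% interval -0.15 to 0.34, adjusted p = 0.631) and -0.09 in KO (-0.34 to 0.15, adjusted p = 0.589). Both intervals end short of 0.90, the smallest fitted rise of a lysyl oxidase in either genotype (Loxl4 in Ctrl). Without Ctrl sham 4, the library with the most Plod1 (118 CPM), the change in Ctrl was 0.25 and was called (adjusted p = 0.0404).

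Plod2 (ENSMUSG00000032374, chromosome 9, 92542223 to 92608428, plus strand) hydroxylates the telopeptide lysines at the ends of the chain, a modification known from fibrotic collagen. It was at 36.6, 31.3, 32.4 and 48.6 CPM in Ctrl sham 1 to 4, at 43.8, 36.3, 28.3 and 33.2 CPM in KO sham, at 36.1, 34.4, 38.1 and 45.8 CPM in Ctrl TAC and at 48.5, 49.3, 41.9 and 43.2 CPM in KO TAC. KO TAC had the highest mean, 45.7 ± 3.74 CPM, but its lowest library lay below the highest of each other group. The change with TAC was 0.05 in Ctrl (adjusted p = 0.849) and 0.37 in KO (95% interval 0.06 to 0.68, adjusted p = 0.0645). DESeq2 called the latter at the same size (0.37, adjusted p = 0.028), and edgeR called it without KO sham 1 (0.49, adjusted p = 0.0174) and in a fit to the 8 KO libraries alone (0.37, adjusted p = 0.0343). Its exons share 346 bases with Gm38391 on the opposite strand, a transcript at 0.864 ± 0.247 CPM in KO sham and 1.62 ± 0.333 CPM in KO TAC (log2 0.90, adjusted p = 0.00389).

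Plod3 (ENSMUSG00000004846, chromosome 5, 136987019 to 136996648, plus strand), which also transfers sugars to hydroxylysine, was the only lysyl hydroxylase called in the 4-group fit. It was at 30.0, 29.4, 31.2 and 35.4 CPM in Ctrl sham 1 to 4 and at 39.1, 41.0, 34.3 and 35.9 CPM in Ctrl TAC. It rose 1.19-fold in Ctrl (log2 0.26, SE 0.06, adjusted p = 0.00722), with Ctrl sham 4 inside the TAC range. In KO the libraries did not overlap, 32.0 to 34.6 CPM in sham and 35.7 to 37.9 CPM in TAC, yet the change of 0.15 (95% interval 0.02 to 0.28) had an adjusted p of 0.0749. It was called in the fit to the 8 KO libraries alone (0.15, adjusted p = 0.026), in which 8 of 10 members were higher against 19.1% of genes. Its exons share 529 bases with Znhit1 on the opposite strand, whose log2 fold changes were 0.01 in Ctrl and -0.03 in KO.

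P4ha2 (ENSMUSG00000018906, chromosome 11, 54100095 to 54131665, plus strand), a catalytic subunit of prolyl 4-hydroxylase, had its highest level in a sham heart. It was at 45.5, 33.8, 48.9 and 80.9 CPM in Ctrl sham 1 to 4, at 64.7, 56.0, 60.5 and 48.2 CPM in KO sham, at 55.5, 57.7, 51.8 and 54.0 CPM in Ctrl TAC and at 52.5, 53.6, 48.1 and 51.4 CPM in KO TAC. The sham libraries spread over a range that contained all 8 TAC libraries. The change with TAC was 0.07 in Ctrl (95% interval -0.34 to 0.47, adjusted p = 0.851) and -0.16 in KO (-0.56 to 0.25, adjusted p = 0.564). Without Ctrl sham 4 the change in Ctrl was 0.36 and was called (adjusted p = 0.0296), and without Ctrl sham 2 it was -0.092.

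The spread among sham libraries followed the animal numbers for several hydroxylases. For Plod1, Plod3 and P4ha2, each of the 4 sham libraries whose animal number starts with 33 (Ctrl sham 4 and KO sham 1, 2 and 3) lay above each of the other 4 sham libraries: 94.1 to 118 against 75.8 to 85.7 CPM for Plod1, 32.9 to 35.4 against 29.4 to 32.0 CPM for Plod3, and 56.0 to 80.9 against 33.8 to 48.9 CPM for P4ha2. No TAC animal has such a number, and Plod2 did not show the split. A model term for these numbers fits a shift that is taken as equal in both genotypes. KO sham 4 is the only KO sham library outside it, so the KO changes below lean on that library and on the assumed shift. With these numbers as a term in the model, 8 of 10 members were called higher after TAC in Ctrl, against 11.0% of all genes, and 9 of 10 in KO, against 13.5%. Plod1 then changed by 0.23 in Ctrl (adjusted p = 0.0157) and by 0.26 in KO (adjusted p = 0.0239), Plod2 by 0.61 in KO (adjusted p = 0.012) and Plod3 by 0.26 in KO (adjusted p = 0.0138), while P4ha2 was at 0.28 in Ctrl (adjusted p = 0.104) and 0.31 in KO (adjusted p = 0.119). The 5 lysyl oxidases were called in both genotypes with and without this term.

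P4ha3 (ENSMUSG00000051048, chromosome 7, 100285520 to 100319699, plus strand), the third alpha subunit, was close to the limit of detection in sham hearts. Counts were 0, 6, 0 and 14 in Ctrl sham 1 to 4, 6, 0, 3 and 0 in KO sham, 9, 14, 8 and 28 in Ctrl TAC and 24, 34, 35 and 44 in KO TAC. All 4 KO TAC libraries exceeded all KO sham libraries, whereas Ctrl sham 4 exceeded 3 of the 4 Ctrl TAC libraries in CPM. The fitted rise in KO was 12.4-fold (95% interval 3.50 to 44.2, adjusted p = 0.00344), a value that rests on 9 sham counts in all and depends on how libraries at 0 are handled. In Ctrl it was 2.57-fold (95% interval 0.789 to 8.40, adjusted p = 0.267). Without Ctrl sham 4 the log2 fold change in Ctrl went from 1.36 to 2.77 and was called (adjusted p = 0.0375), as it was with the term for numbers starting with 33 (2.83, adjusted p = 0.0178).

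Sequences around annotated starts were examined for the members with an entry in the RefSeq promoter table (GRCm38.p6, 250 bases before to 50 after the start), which were 5 of the 10: Loxl4, Plod1, Plod3, P4ha2 and P4ha3. The 3 windows below are shown because Loxl4 and P4ha3 were the scarcest members and rose in KO hearts whereas P4ha2 was not called. Capitals mark matches on either strand to CAGAC, the SMAD half-site bound by the TGF-β effectors, and to ACGTG or GCGTG, the core of the hypoxia response element; the latter letters are also part of other motifs such as the E-box CACGTG.
Loxl4, chr19:42612757-42613056, minus strand: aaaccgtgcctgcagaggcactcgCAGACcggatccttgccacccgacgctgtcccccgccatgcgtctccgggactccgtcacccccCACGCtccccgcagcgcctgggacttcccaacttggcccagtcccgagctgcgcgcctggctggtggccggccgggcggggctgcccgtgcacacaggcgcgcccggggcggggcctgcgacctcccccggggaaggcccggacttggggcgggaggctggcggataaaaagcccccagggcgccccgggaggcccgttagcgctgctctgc
P4ha3, chr7:100285270-100285569, plus strand: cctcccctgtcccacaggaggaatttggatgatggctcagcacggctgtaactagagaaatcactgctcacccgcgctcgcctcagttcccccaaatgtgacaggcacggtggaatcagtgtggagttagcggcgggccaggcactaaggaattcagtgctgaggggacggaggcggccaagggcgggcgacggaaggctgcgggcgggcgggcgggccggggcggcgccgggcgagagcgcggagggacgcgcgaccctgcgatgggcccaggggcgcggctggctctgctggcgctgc
P4ha2, chr11:54100674-54100973, plus strand: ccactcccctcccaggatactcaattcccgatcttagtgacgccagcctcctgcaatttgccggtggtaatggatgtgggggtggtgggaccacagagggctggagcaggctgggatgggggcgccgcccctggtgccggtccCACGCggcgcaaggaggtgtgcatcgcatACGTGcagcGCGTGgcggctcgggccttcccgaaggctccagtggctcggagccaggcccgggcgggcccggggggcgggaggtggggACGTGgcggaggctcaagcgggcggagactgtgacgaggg
Loxl4 held 1 match to the SMAD half-site and 1 to the hypoxia core, P4ha3 held neither, and P4ha2, whose window lies inside the gene as placed above because the RefSeq start is downstream of the GENCODE one, held 4 to the hypoxia core and none to the SMAD half-site. Of all 32851 promoter windows in the table, 49.6% held at least 1 SMAD half-site match and 43.8% at least 1 hypoxia core match. Plod3 (chr5:136986769-136987068) held 4 hypoxia core matches, and Plod1 (chr4:147936727-147937026) held 2 with 1 SMAD half-site. These are matches of letters in a window and were not tested for binding.

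Per kilobase of exon, the order of the 10 genes changed with TAC. In Ctrl sham hearts Plod1 led at 13.3 ± 2.85 CPM per kilobase, followed by P4ha2 (8.38 ± 3.23), Plod3 (6.97 ± 0.596), Plod2 (6.91 ± 1.46) and Loxl1 (5.85 ± 1.15), each with a range that overlapped with that of the next. Below these came Loxl2 (2.17 ± 0.324), Loxl3 (1.15 ± 0.134), Lox (0.636 ± 0.0594), Loxl4 (0.168 ± 0.0670) and P4ha3 (0.0293 ± 0.0412), each with a range below that of the one before it. KO sham hearts had Plod1 first too, at 13.7 ± 1.62.

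After TAC in Ctrl, Loxl1 reached 13.8 ± 0.990 CPM per kilobase and overlapped with Plod1 at 14.2 ± 1.07. In KO TAC hearts Loxl1 led at 19.0 ± 1.57, with its lowest library (17.5) above the highest of Plod1 (13.5). Loxl2 stood at 8.92 ± 0.313 there, beside Plod2 (8.48 ± 0.694), P4ha2 (8.24 ± 0.377) and Plod3 (8.15 ± 0.211), neighbours that did not differ beyond their spread. Lox (3.80 ± 0.701) overlapped with Loxl3 (3.47 ± 0.202), below which it lay in sham hearts. Loxl4 (0.493 ± 0.112) and P4ha3 (0.158 ± 0.0294) stayed last. In CPM not divided by exon length, Plod1 stayed above Loxl1 in KO TAC, at 87.2 ± 3.38 against 62.6 ± 5.18.

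**Figure D3:**
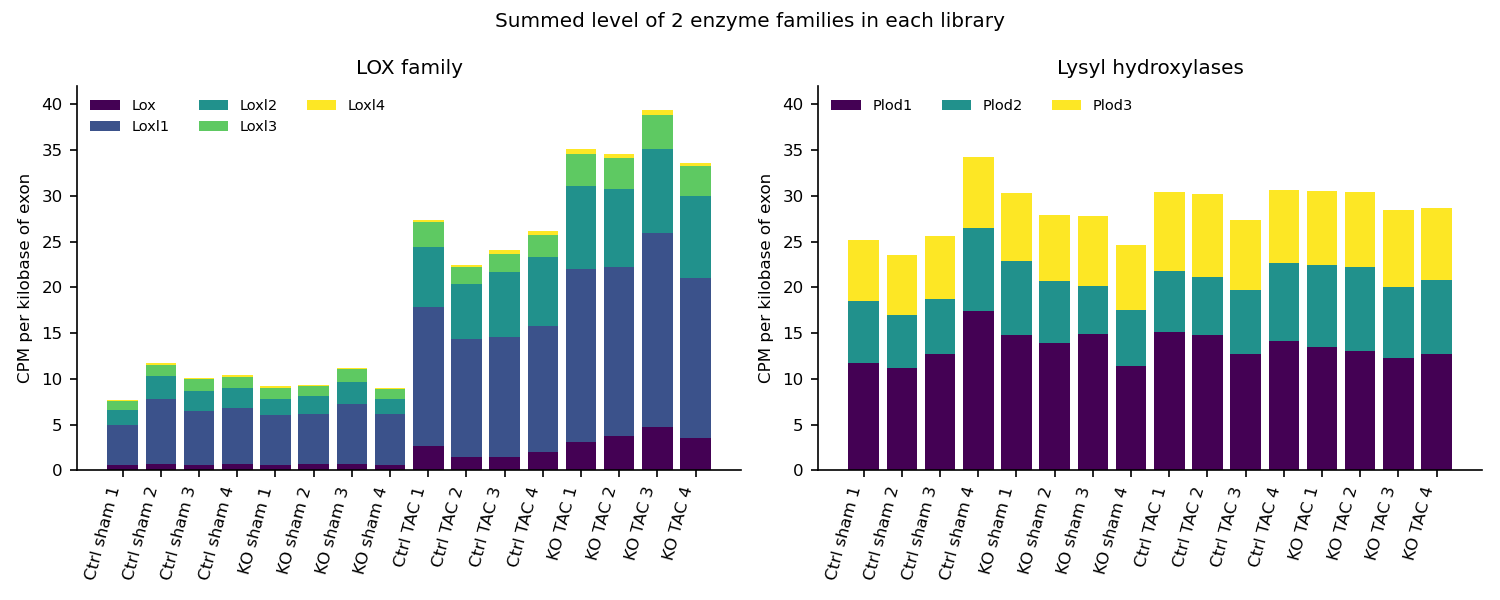
Summed level of the LOX family (left) and of the lysyl hydroxylases (right) in each of the 16 libraries, in CPM per kilobase of exon, with each colour a gene. The LOX family sum lies between 7.73 and 11.7 in the sham libraries, 22.5 and 27.4 in Ctrl TAC and 33.6 and 39.4 in KO TAC, while the lysyl hydroxylase sum keeps between 23.5 and 34.3 in all 16.

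Summed per kilobase, the LOX family went from 9.97 ± 1.66 in Ctrl sham to 25.0 ± 2.18 in Ctrl TAC, and from 9.70 ± 1.02 in KO sham to 35.7 ± 2.56 in KO TAC. The lysyl hydroxylases summed to 27.1 ± 4.85, 29.6 ± 1.56, 27.6 ± 2.33 and 29.5 ± 1.12 in the same order. Per kilobase, the family of oxidases thus exceeded the family of hydroxylases in each of the 4 KO TAC libraries, and in each of the 12 others it was the smaller. This order depends on the division by exon length. By counts not divided by length, the oxidases were the smaller family in the KO TAC libraries too. These sums were compared as values, with no test.

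Within the LOX family the makeup shifted less than the total. Loxl1 made up 58.4% ± 1.96 of the sum in Ctrl sham, 59.6% ± 1.28 in KO sham, 55.2% ± 2.02 in Ctrl TAC and 53.2% ± 0.808 in KO TAC. Loxl2 went from 21.8% ± 0.685 to 27.1% ± 2.24 in Ctrl and from 19.9% ± 1.37 to 25.1% ± 1.51 in KO, with no overlap between sham and TAC libraries in either genotype. Lox made up 6.46% ± 0.684, 6.27% ± 0.348 and 7.40% ± 1.68 in Ctrl sham, KO sham and Ctrl TAC and 10.6% ± 1.35 in KO TAC, where its lowest share, 8.85%, lay below the 9.73% of Ctrl TAC 1. Loxl3 went from 11.7% ± 1.39 to 9.0% ± 0.657 in Ctrl and from 12.6% ± 0.388 to 9.72% ± 0.340 in KO. Shares of lysyl hydroxylase RNA were steady for Plod3, at 26.0% to 28.1% in the group means, while Plod1 was at 49.6% ± 3.04 in KO sham and 43.7% ± 0.752 in KO TAC and Plod2 at 23.7% ± 3.40 and 28.7% ± 1.29. These are descriptions with no test, since shares of 1 sum move together.

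The question posed by the KO TAC and Ctrl TAC groups is whether loss of Cardinal changes the response of these genes to load. Sham hearts give the baseline: the 10 log2 differences between KO sham and Ctrl sham ran from -1.13 for P4ha3 to 0.14 for P4ha2, none of 10 was called beside 0% of all genes tested, and 479 genes had an unadjusted p under 0.05. No member had sham libraries that did not overlap, against 1.78% of all genes. The intervals of Lox (-0.47 to 0.33), Loxl1 (-0.26 to 0.22), Loxl2 (-0.39 to 0.08) and Loxl3 (-0.15 to 0.33) exclude a difference as large as the one seen between the TAC groups for Lox, Loxl1, Loxl2 and Loxl3 respectively. DESeq2 also called no member in sham hearts, a fit for which no share of all genes is given.

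Among the TAC groups, the calls for Lox, Loxl1 and Loxl3 depended on the libraries in the fit. Lox and Loxl3 were called in 8 of 8 fits that left out a single TAC library, with log2 differences of 0.89 to 1.23 and 0.54 to 0.70, and also without both Ctrl TAC 2 and KO TAC 4 (Lox 0.94, adjusted p = 0.0335, and Loxl3 0.57, adjusted p = 0.0309). Loxl1 was called in 3 of those 8 fits, being lost without Ctrl TAC 2, Ctrl TAC 3, KO TAC 1, KO TAC 2 or KO TAC 3, with differences of 0.41 to 0.51, and was not called without both libraries (0.47, adjusted p = 0.121). In a fit to the 8 TAC libraries alone Lox was not called (1.02, adjusted p = 0.0669), while Loxl1 (0.46), Loxl2 (0.39) and Loxl3 (0.61) were, each at an adjusted p of 0.0333. No share of all genes is given for that fit, so these calls describe the fit and are no result about the members. Among fits that left out a TAC library, Loxl2 was called in 1 of the 8, without Ctrl TAC 4 (0.45, adjusted p = 0.0408). DESeq2 called 4 members higher in KO TAC, with Loxl2 the addition (0.40, adjusted p = 0.0108), against 3.75% of the genes it tested.

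The animal-number series is unevenly spread over the TAC groups, with 3 of 4 Ctrl TAC animals but 1 of 4 KO TAC animals in the series starting with 25. Within that series Lox was at 6.75, 6.98 and 9.40 CPM in Ctrl TAC and at 17.0 CPM in the library labelled KO TAC 4, and within the other at 12.7 CPM in Ctrl TAC 1 and at 14.9, 18.0 and 22.8 CPM in KO TAC. The same order, every KO TAC library above every Ctrl TAC library of its series, held for Loxl1, Loxl2 and Loxl3, whose groups did not overlap at all. With the series as a model term no member was called, 0 of 10, beside 0.0328% of all genes, and the differences were 0.84 for Lox (adjusted p = 0.0547), 0.50 for Loxl3 (adjusted p = 0.0862), 0.41 for Loxl2 (adjusted p = 0.175) and 0.38 for Loxl1 (adjusted p = 0.204). In that fit 2380 genes had an unadjusted p under 0.05.

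KO TAC 4, the library with Cardinal at a Ctrl level, lay above every Ctrl TAC library in the 4 genes whose TAC groups did not overlap. That position follows from the choice of genes without overlap, so it says nothing of the genotype of this library. It held 17.0 CPM of Lox among 14.9 to 22.8, 48.6 of Loxl2 among 45.7 to 49.6, 57.6 of Loxl1 (the lowest of the group, and above the highest Ctrl TAC library at 50.0) and 14.7 of Loxl3 (also the lowest, against a Ctrl TAC maximum of 12.3). For Loxl4, whose TAC groups overlapped, it lay below Ctrl TAC 3 and Ctrl TAC 4 in CPM.

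The interaction asks whether the TAC response itself differed between genotypes. It was positive for all 5 lysyl oxidases, at 1.09 for Lox (SE 0.25), 0.80 for Loxl4, 0.55 for Loxl2, 0.53 for Loxl3 and 0.48 for Loxl1, between -0.23 and 0.31 for the lysyl hydroxylases and P4ha2, and 2.27 (SE 1.25) for P4ha3. None was called: the adjusted p was 0.177 for Lox, and 0.0109% of all genes passed, with 2024 at an unadjusted p under 0.05. The unadjusted edgeR p of Lox was 0.00052. DESeq2 called the interaction of Lox (1.09, adjusted p = 0.00749), 1 of 10 members against 0.586% of genes called higher by it, and edgeR called it without Ctrl TAC 1 (1.30, adjusted p = 0.0268). Each TAC comparison shares its 4 TAC libraries with the comparison of KO TAC and Ctrl TAC, and the interaction is made from all 16.

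Cell type markers moved with these genes. Summed CPM of 6 activated fibroblast markers (Postn, Cthrc1, Comp, Meox1, Fap and Cilp) ran from 35.2 to 59.4 in Ctrl sham, 41.7 to 48.2 in KO sham, 191 to 374 in Ctrl TAC and 554 to 695 in KO TAC, with 5 of 6 called higher in Ctrl, 6 of 6 in KO and 4 of 6 higher in KO TAC than in Ctrl TAC. The 7 general fibroblast markers moved less, from 1160 to 1274 in Ctrl sham, 1187 to 1247 in KO sham, 1043 to 1363 in Ctrl TAC and 1290 to 1570 in KO TAC, with 1, 4 and 0 of 7 called higher in these comparisons. Macrophage markers summed to 88.0 to 118, 83.2 to 103, 126 to 141 and 129 to 168 CPM, with 3, 6 and 0 of 6 called higher. The 7 cardiomyocyte markers had 4 called lower in Ctrl, 5 in KO and 2 in KO TAC against Ctrl TAC, and the 6 endothelial markers had none called. No share of all genes called lower is given here, so counts of markers called lower are descriptions alone. Smooth muscle and pericyte genes had 2, 3 and 0 of 7 called higher. With the number series as a term, 2 of 7 cardiomyocyte genes were called lower in Ctrl. In that fit 2 of 7 general fibroblast, 1 of 6 macrophage and 0 of 7 smooth muscle and pericyte genes were called higher in Ctrl. The counts in KO were unchanged for these lists, while 1 of 6 endothelial genes was called higher in KO in that fit. The remaining lists gave 3 lymphocyte genes of 4 tested called higher in KO, 1 atrial gene of 1 tested called higher in Ctrl, 2 Schwann genes of 3 called lower in KO, no call among 3 mesothelial genes, and no adipocyte gene above the filter. In KO 2 of 3 mesothelial genes were called higher with the series term, without KO TAC 4, and without both KO TAC 4 and Ctrl TAC 2. The series term removed the atrial call, and without KO TAC 4 the lymphocyte genes called in KO were 2 of 4. Ctrl TAC 2 had Schwann and adipocyte sums of 10.7 and 1.63 CPM, against group medians of 4.03 and 0.250. Without it the atrial call was lost, and 2 of 3 Schwann genes were called lower in Ctrl as well. In Ctrl, 3 of 7 general fibroblast, 6 of 6 activated fibroblast and 2 of 6 macrophage genes were then called higher, and 5 of 7 cardiomyocyte genes lower. Between the TAC groups, the fit with a term for the series kept 0 of the 4 activated fibroblast calls and 0 of the 2 cardiomyocyte calls, and the fit without both Ctrl TAC 2 and KO TAC 4 kept those of Postn and Comp alone. The part of these cells in the levels of the lysyl oxidases was not tested.

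The collagens and elastin on which the lysyl oxidases act rose as well, 7 of 7 in each genotype. Col1a1 was at 48.8 ± 9.12 CPM in Ctrl sham, 44.7 ± 2.81 in KO sham, 155 ± 16.8 in Ctrl TAC and 197 ± 7.59 in KO TAC (log2 fold change 1.67 in Ctrl and 2.14 in KO). Col3a1 rose by 1.68 and 2.23 and Col1a2 by 1.25 and 1.69 on the log2 scale. After TAC, Col1a2 (0.40, adjusted p = 0.0375) and Col5a2 (0.51, adjusted p = 0.0104), a chain of the type V collagen on which fibrils start, were higher in KO. Col1a1 (0.35, adjusted p = 0.0846) and Col3a1 (0.39, adjusted p = 0.123) were not called.

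Set against the counts of Col1a1, Col1a2 and Col3a1 together, the lysyl oxidases moved less than Plod1, Plod2, Plod3 and P4ha2. The log2 ratio of Loxl2 to these collagens was -4.38 ± 0.15 in Ctrl sham and -4.26 ± 0.10 in Ctrl TAC, and -4.45 ± 0.16 in KO sham and -4.25 ± 0.09 in KO TAC, so that Loxl2 kept pace with them to within 0.12 in Ctrl and 0.20 in KO. The ratio of Lox moved by -0.02 in Ctrl and by 0.62 in KO, from -6.30 ± 0.07 to -5.68 ± 0.26. Loxl1 moved by -0.28 in Ctrl and -0.29 in KO, Loxl3 by -0.57 and -0.51 and Loxl4 by -0.62 and -0.31. With Col1a1 alone as the denominator the changes in Ctrl and KO were -0.03 and 0.07 for Loxl2, -0.17 and 0.49 for Lox, -0.43 and -0.42 for Loxl1, -0.72 and -0.64 for Loxl3 and -0.76 and -0.44 for Loxl4.

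The lysyl hydroxylases and P4ha2 were much further behind, and P4ha3 was not. Relative to the collagens Plod1 moved by -1.42 in Ctrl and -2.10 in KO, Plod2 by -1.47 and -1.63, Plod3 by -1.28 and -1.86, and P4ha2 by -1.40 and -2.16. For Plod1 the ratio went from -1.45 ± 0.39 to -2.87 ± 0.22 in Ctrl and from -1.30 ± 0.13 to -3.40 ± 0.06 in KO, with no overlap between the groups. The ratio of P4ha3 went up by 0.99 and 2.22, on counts of 44 or fewer. These ratios were computed on counts with 0.5 added and were not tested.

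**Figure D4:**
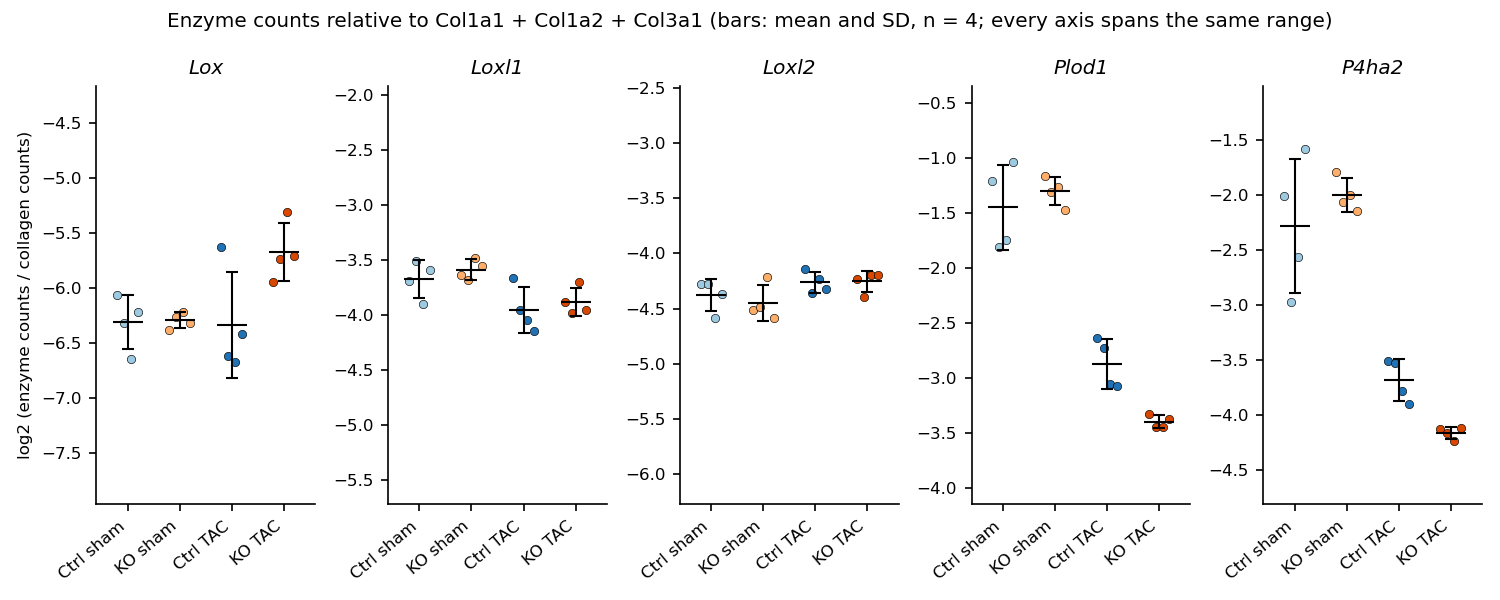
Log2 ratio of the counts of 5 enzyme genes to the summed counts of Col1a1, Col1a2 and Col3a1 in each library; points are libraries, bars the mean and SD (n = 4), and all 5 axes span the same range. Loxl2 stays near -4.3 in all groups, Lox is highest in KO TAC, and Plod1 and P4ha2 lie lower in the TAC than in the sham libraries of both genotypes.

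Partners of these enzymes were examined as lists of related genes. Of the 58 tested, 12 were called between the TAC groups, 10 higher and 2 lower in KO TAC, as named below, and few calls held throughout. In the fit with the number series only Skil kept its call, without Ctrl TAC 2 only Col5a2 and Skil (against 0.217% of all genes called higher), and without both Ctrl TAC 2 and KO TAC 4 only Fbln5, Col5a2 and Skil (against 0.398%). Without KO TAC 4 alone 7 calls were kept, for P3h3, Tll2, Adamts2, Fbln5, Col5a2, Skil and Ltbp2 (against 1.28%). All 12 kept their direction in each of these fits. For TAC against sham, the term for the series kept 26 of 33 calls in Ctrl and 39 of 41 in KO. Of 10 genes for prolyl hydroxylation and collagen glycosylation, 6 rose and 1 fell with TAC in Ctrl and 7 rose and 1 fell in KO. In Ctrl 4 rose with the series term and 5 without both Ctrl TAC 2 and KO TAC 4. P3h2, a prolyl 3-hydroxylase, rose by 0.71 in Ctrl and 1.17 in KO, and P3h4, a partner protein of lysyl hydroxylase 1, fell by 0.59 and 0.95. In KO TAC against Ctrl TAC, P4hb, the shared beta subunit of prolyl 4-hydroxylase (0.20, adjusted p = 0.0419), and P3h3 (0.31, adjusted p = 0.0242) were higher and P3h4 was lower (-0.48, adjusted p = 0.0498). P4ha1, the widely expressed alpha subunit, had log2 fold changes of 0.16 in Ctrl (adjusted p = 0.835) and -0.06 in KO (adjusted p = 0.929).

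Of the 8 genes for folding and export of procollagen, only Sparc rose in Ctrl (1.05) and only Sparc (1.39) and Fkbp14 (0.26) rose in KO. Fkbp14 lost its call with the number series as a term, without KO TAC 4, and without both KO TAC 4 and Ctrl TAC 2. Sparc, a collagen-binding protein of the matrix, was also higher in KO TAC than in Ctrl TAC (0.35, adjusted p = 0.0485). Serpinh1, the collagen chaperone HSP47, was at 143 ± 63.6 CPM in Ctrl sham and 172 ± 11.9 in Ctrl TAC (adjusted p = 0.492). Among 8 genes that trim procollagen, 4 rose in Ctrl and 4 rose and 2 fell in KO. Only 1 of the 8 fell in KO without KO TAC 4, and likewise without both KO TAC 4 and Ctrl TAC 2. Adamts2, the amino-terminal procollagen protease, rose by 1.28 and 1.86 and was higher in KO TAC (0.43, adjusted p = 0.035), and Pcolce, an enhancer of carboxy-terminal trimming, rose by 0.90 and 1.18. Tll2 fell by 1.52 in KO and was lower in KO TAC than in Ctrl TAC (-1.14, adjusted p = 0.0403).

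Of 7 genes listed for activation, scaffolding and copper supply of lysyl oxidases, 6 rose in each genotype, and 4 rose in Ctrl when the number series was a term. The 6 include Tgm2 (0.50 in Ctrl and 0.43 in KO), which encodes a transglutaminase that cross-links proteins itself and neither activates lysyl oxidases nor carries copper. Emilin1 rose by 0.82 in Ctrl and 1.13 in KO. Efemp2 (fibulin 4), which brings Lox to elastin, rose by 0.62 and 0.68, and Fbln5 (fibulin 5), a partner of Loxl1, by 0.57 and 0.89. Fbln5 was the one gene of this list that was higher in KO TAC (0.46, adjusted p = 0.0167). The copper importer Slc31a1 rose by 0.25 and 0.23 and the copper chaperone Atox1 by 0.24 and 0.38, whereas Atp7a, the pump that loads copper into secreted enzymes, was at -0.04 (adjusted p = 0.876) and 0.13 (adjusted p = 0.497). Slc31a1 and Atox1 were the genes that lost their calls in Ctrl with the series term. Slc31a1 also lost its call in KO without KO TAC 4, and without both KO TAC 4 and Ctrl TAC 2, where 5 of 7 rose.

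Lists of genes known to respond to TGF-β and to low oxygen, both known regulators of enzymes of this class, were counted in the same way. Of 9 TGF-β responsive genes, 8 rose in Ctrl and 8 in KO, the exception being Smad7 in both (0.16 and 0.41). With the number series as a term 5 of 9 rose in Ctrl. Ltbp2 rose by 3.22 and 4.81 and Ccn2 by 1.84 and 2.41. Ltbp2 (1.27, adjusted p = 0.0329), Skil (0.42, adjusted p = 0.00883) and Tgfb3 (0.39, adjusted p = 0.0421) were higher in KO TAC. Of 10 hypoxia responsive genes, with P4ha1 again among them, none rose in Ctrl and 4 rose in KO, Ankrd37 (0.39) and Bnip3 (0.25) by the most, and none differed between the TAC groups. The fit with the series term had 1 rise in Ctrl and 3 in KO, where Ankrd37 lost its call, as it did without Ctrl TAC 2. The median log2 fold change was 0.67 and 1.10 for the TGF-β list and 0.11 and 0.10 for the hypoxia list, beside 0.00 for all genes in each comparison.

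**Figure D5:**
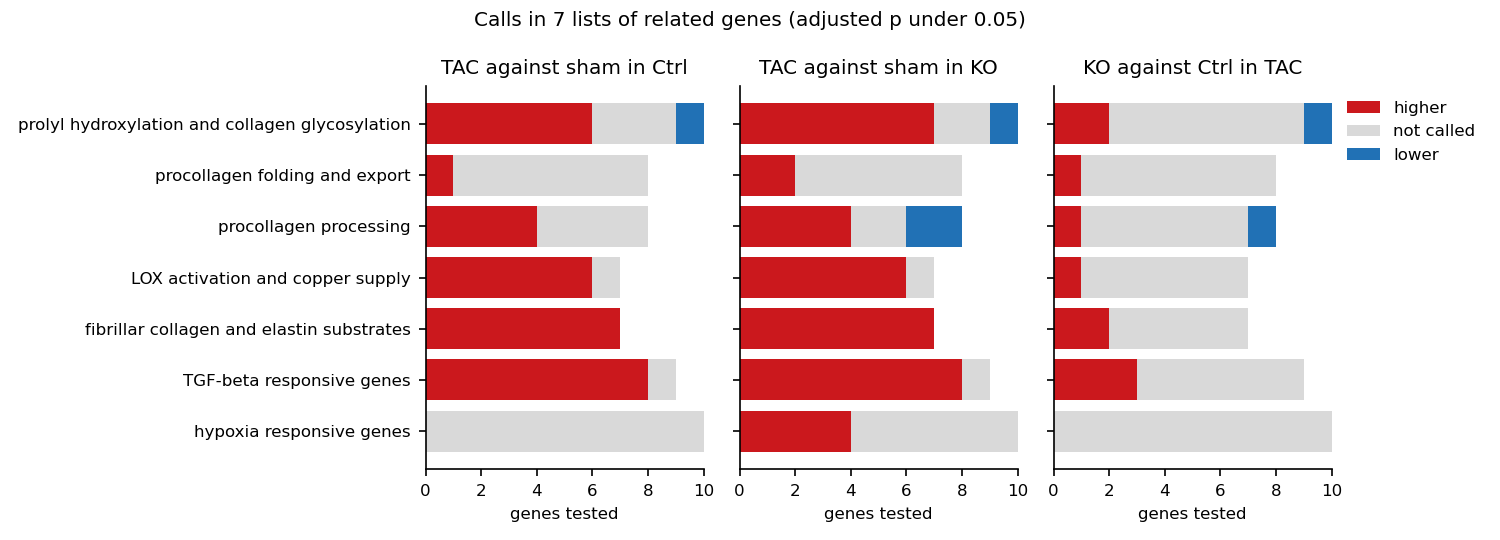
Number of genes called higher (red), called lower (blue) or not called (grey) at an adjusted p under 0.05 in 7 lists of related genes, for the TAC effect in each genotype and for KO TAC against Ctrl TAC. All 7 substrates are red in both TAC panels, and the folding and hypoxia lists are mostly or wholly grey.

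The genes whose pattern over the 16 libraries was most like each member were found from the root mean square difference of mean-centred log2 CPM. For Loxl2 these were the collagen Col5a2 (0.10) and the microfibril gene Fbn1 (0.10), 10.3% and 10.5% of the spread of Loxl2 itself (0.99). For Loxl1 they were Col15a1 (0.12) and Adamts2 (0.13), for Loxl3 Igfbp7 (0.12) and Ssc5d (0.12), and for Lox the Wnt antagonist Frzb (0.23) and Dkk3 (0.26). Loxl4 had Lhfpl2 (0.28) and Scx (0.31), the latter a tendon transcription factor. These distances were 14.8% to 39.2% of the member's own spread. The hydroxylases varied little over the libraries, and their nearest genes lay at 43.5% to 54.8% of the member's own spread, so that none was close. P4ha2 was nearest to the chaperone genes Hspa4l (0.11) and Hsp90ab1 (0.12), Plod1 to the chaperonin gene Cct3 (0.08) and Dnajb2 (0.09), Plod2 to Zfp948 (0.10) and Tbc1d10a (0.12), and Plod3 to Rnf145 (0.06) and Mrto4 (0.06). No gene came closer to P4ha3 than 0.72 (Adamts8), with Ptgs2 next at 0.77, against a spread of 1.54. Likeness over libraries that share 4 groups is a description and says nothing of shared control.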

How the data were processed

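Poly(A) RNA from 16 mouse hearts was sequenced as paired reads of 150 bases per the labels. The deposited file is a single matrix of raw counts for Ensembl genes, whole numbers that the authors did not normalize. The submitters' processing notes name cutadapt 2.3, FastQC, HISAT2 2.1.0, edgeR 3.26.1 and GRCm38; the counting program, annotation and use of strand are not given in the sources used here. Reads shared by overlapping genes could therefore be counted for either.

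Columns were matched to animals by the number in the titles. Replicates were numbered in sample order, so they pair nothing, and no label says how the animals relate. Names and exon lengths came from GENCODE M21 (GRCm38), which named 99.5% of the identifiers; the rest held 0.00355% of counts. Genes passing filterByExpr (18275) were fitted in edgeR 4.0.16 (R 4.3.3) with TMM scaling, robust glmQLFit and a mean for each of 4 groups over all 16 libraries, and 5 contrasts were tested by glmQLFTest. The standard error is the absolute log2 fold change over the square root of F. The fit was tested on simulated data. Alternatives were RLE scaling, DESeq2 1.42.0, no filter, a minimum of 10 counts in each library, a threshold of 0.01, terms for animal-number series, 8-library fits and leaving libraries out. Alternatives for the related genes were chosen after seeing the data. Intervals cover 95%. Genes named beyond the members are those of 7 related lists called in KO TAC against Ctrl TAC, the 2 largest changes per list among called genes in each TAC comparison, the 3 fibrillar collagens, and for each member the 2 nearest genes whose mean log2 CPM reached 2 or the member's own if lower, and no predicted-gene name; Serpinh1, P4ha1, Atp7a and Smad7 were named after their values were seen. The members, lists and tests were chosen with earlier results of these data known. Figures used matplotlib.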

Additional observations from a re-analysis of the deposited data

Results flagged for a closer look

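Of 40 sets of 4 libraries examined (10 genes in 4 groups), 2 held a library far from the other 3 by Dixon's criterion, which chance meets in about 1 set of 20. Loxl1 in KO sham 3 was at 21.7 CPM, above the other KO sham libraries at 18.0 to 18.3 CPM. P4ha3 in KO TAC 1 was at 0.356 CPM, below the other KO TAC libraries at 0.530 to 0.552 CPM. Neither library changes the order of the groups given above for its gene.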

How the results depend on the processing

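No paired analysis was possible because the replicate numbers were given in sample order and the labels pair no animals. The fit described above called 6, 6, 3, 0 and 0 members for TAC in Ctrl, TAC in KO, KO against Ctrl in TAC, the same in sham, and the interaction. The count for KO against Ctrl in TAC was 0 at a threshold of 0.01, for which no share of all genes is given. It was 0 in the fit with a series term, against 0.0328% of all genes called higher. The count for the interaction was 1 by DESeq2, against 0.586% of genes called higher. Leaving out each library in turn gave 5 to 9, 6 to 7, 2 to 4, 0 to 0 and 0 to 1 members. The share of all genes called moved between such fits as well. For KO TAC against Ctrl TAC, 1.36% were called higher in the main fit, 0.217% without Ctrl TAC 2 and 1.28% without KO TAC 4. These ranges therefore describe the fits and are no result about the members. Among fitted changes, directions turned only for hydroxylases. With numbers starting with 33 as a term the TAC change in KO was 0.26 for Plod1 and 0.31 for P4ha2, and the interaction 0.028 for Plod1 and 0.035 for P4ha2. Leaving out single libraries moved the TAC change in Ctrl between -0.039 and 0.21 for Plod2 and between -0.092 and 0.36 for P4ha2, and the KO TAC difference of Plod3 between -0.069 and 0.016; without Ctrl TAC 2 and KO TAC 4 together it was 0.030. The cause was not tested. Calls that single libraries decide are given with each gene. In fits to the 8 libraries compared, calls changed for Lox and Loxl2 between the TAC groups, Loxl4 in Ctrl and Plod2 and Plod3 in KO, as given above. RLE scaling changed no call. Shares without length correction kept Loxl1 first, at 42.6% to 49.3% in the group means. Fewer than 10 counts in a sham library limit P4ha3.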

Other observations

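The split of the sham hearts by animal number was not confined to the hydroxylases described above. P4ha1, the widely expressed alpha subunit of prolyl 4-hydroxylase, was at 142 CPM in Ctrl sham 4 and at 93.8, 86.0 and 92.8 CPM in KO sham 1, 2 and 3, whose animal numbers start with 33. The other sham libraries held 39.3, 32.2 and 45.8 CPM in Ctrl sham 1, 2 and 3 and 43.5 CPM in KO sham 4. The 8 TAC libraries lay between, at 60.3 to 84.6 CPM. For Serpinh1, the collagen chaperone, the former sham libraries likewise lay above the latter, at 238, 180, 179 and 209 CPM in the former libraries and at 112, 103, 119 and 115 CPM in the latter, with 151 to 191 CPM in the TAC libraries, a range that reached past KO sham 1 and 2. Both genes were named after their values were seen, and what the numbers stand for was not tested.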
